A study of Homo sapiens with 6 samples.

Results

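The genes described here encode coactivators of nuclear receptors and the acetyltransferases that work with them. A list of 10 such genes, chosen with earlier results of these data known, was searched in the platform annotation of the array. Every probe set that carried exactly 1 gene symbol from the list was taken, without regard to its values. This gave 22 probe sets for 9 genes, of 41091 single-symbol probe sets for 19775 genes on the array. NCOA3 was the listed gene with no such probe set. The samples come from U937T:PLZF-RARa, cells engineered from U937, a myelomonocytic leukaemia line, in which tetracycline keeps the fusion protein PLZF-RARA switched off. The fusion joins the repressor PLZF (ZBTB16) to the retinoic acid receptor RARA. The 3 uninduced samples were kept with tetracycline, which the growth medium held at 0.1 µg/ml together with puromycin and G418, and the 3 induced samples had been washed and grown without tetracycline for 48 h. Each sample was hybridised to its own Affymetrix HG-U133 Plus 2.0 array. All 6 samples carry the engineered construct, and no line without it was analysed here, so expression of the fusion and removal of tetracycline cannot be told apart. The titles of the uninduced samples give the same time, but another label places them before induction, so whether they had 48 h of culture beside the induced samples is unsettled, and time in culture and the wash cannot be told apart from induction either. Replicates are numbered, with nothing on whether each came from its own culture, and the p-values therefore measure the spread between these samples, which may be technical. In such bulk RNA, fewer cells of a type and less RNA per cell cannot be told apart.

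Nuclear receptors such as RARA switch genes on by exchanging corepressors for coactivators when a ligand binds. NCOA1, NCOA2 and NCOA3, the p160 family, dock on the liganded receptor through short leucine-rich motifs and bring in other enzymes. Among these are the acetyltransferases CREBBP (CBP) and EP300 (p300), the pair KAT2A (GCN5) and KAT2B (PCAF), which work inside the SAGA and ATAC complexes, and CARM1, which methylates arginines of histones and of coactivators. MED1 is the Mediator subunit that links receptors to RNA polymerase II, and NCOA4 is known both as a receptor coactivator and as the autophagy receptor that delivers ferritin to lysosomes. PLZF-RARA retains the receptor part that binds retinoic acid and is known as a repressor of receptor targets.

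Of the genes, 4 lay at the ends of the range of changes seen here: NCOA1 and KAT2B rose the most, and KAT2A and CARM1 fell. The 250 bases before the RefSeq start of each are shown to let their starts be compared (RefSeq, GRCh38.p14, each in the direction of its gene, with the matches to a GC box in capitals). They lie at chr2:24491004-24491253 on the plus strand for NCOA1, chr3:20040196-20040445 on the plus strand for KAT2B, chr17:42121368-42121617 on the minus strand for KAT2A and chr19:10871303-10871552 on the plus strand for CARM1.
NCOA1: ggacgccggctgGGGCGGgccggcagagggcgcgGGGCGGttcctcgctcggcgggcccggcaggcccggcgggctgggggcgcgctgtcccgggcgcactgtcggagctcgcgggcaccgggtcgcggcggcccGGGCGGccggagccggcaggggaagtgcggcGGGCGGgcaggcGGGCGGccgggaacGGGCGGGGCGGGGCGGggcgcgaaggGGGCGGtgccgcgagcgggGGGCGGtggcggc
KAT2B: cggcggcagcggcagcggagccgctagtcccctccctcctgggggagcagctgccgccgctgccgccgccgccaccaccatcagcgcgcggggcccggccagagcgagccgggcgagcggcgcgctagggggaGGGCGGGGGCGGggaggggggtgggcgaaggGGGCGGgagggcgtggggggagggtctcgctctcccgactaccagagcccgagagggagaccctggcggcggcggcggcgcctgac
KAT2A: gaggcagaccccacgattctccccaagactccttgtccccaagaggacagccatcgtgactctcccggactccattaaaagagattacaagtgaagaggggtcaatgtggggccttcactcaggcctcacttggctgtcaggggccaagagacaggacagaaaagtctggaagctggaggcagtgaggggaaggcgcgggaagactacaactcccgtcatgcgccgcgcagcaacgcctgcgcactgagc
CARM1: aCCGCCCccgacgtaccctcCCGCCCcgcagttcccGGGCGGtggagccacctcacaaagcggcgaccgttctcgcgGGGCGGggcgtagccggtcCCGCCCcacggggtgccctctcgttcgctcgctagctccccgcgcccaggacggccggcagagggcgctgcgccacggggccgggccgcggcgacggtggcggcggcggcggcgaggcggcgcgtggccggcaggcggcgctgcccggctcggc

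On both strands 5 motifs were searched in such windows of 9 of the listed genes. These include NCOA3, which had no probe set here, and leave out NCOA2, whose window was not analysed. The GC box GGGCGG, a site of SP1-type factors, was found 10 times before NCOA1, 5 times before CARM1, 3 times each before KAT2B and CREBBP and 1 time before NCOA4, and matches could overlap. It was not found before KAT2A, EP300, NCOA3 or MED1, and 42.64% of all 35116 promoter windows of the same length held it. The element AGGTCA, which many nuclear receptors bind (12.08% of all windows), the E-box CACGTG (6.34%) and the cAMP response element TGACGTCA (1.65%) matched in 0 of the 9 windows, and CCAAT (32.01%) matched before MED1 alone. The G and C content was 87.2% for NCOA1, 80.8% for KAT2B, 81.6% for CARM1 and 58.8% for KAT2A, beside a median of 58.0% over all windows. So genes that rose and genes that fell were found both with and without GC boxes.

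After 48 h without tetracycline NCOA1, NCOA2, KAT2B, CREBBP and EP300 were higher, from 1.54-fold for NCOA2 to 4.18-fold for KAT2B by the brightest tested probe set of each gene, and 4.26-fold by another probe set of NCOA1. KAT2A and CARM1 were 2.90-fold and 3.34-fold lower, and MED1 and NCOA4 were not called. Values are log2 of the deposited intensities, and the test took probe sets with values above 4 on at least 3 of the 6 arrays. Of the 22 probe sets 16 passed. By limma, with p-values adjusted after Benjamini and Hochberg across the 20552 probe sets tested, 9 of the 16 were higher and 2 lower in induced samples at an adjusted p under 0.05, and 5 were not called. Calls were frequent on these arrays: 34.6% of all tested probe sets were higher and 27.9% lower, 62.5% together, so that 11 called of 16 (68.75%) is near the background. The groups did not overlap in the same 11 probe sets, where 70.2% of all tested probe sets had groups that did not overlap. The size of the changes was further from the background. The genes were chosen with earlier results of these data known, so the shares below cannot show that the group stands out. A called change of over 1 on the log2 scale was measured in 8 of the 16 probe sets, 4 of them for NCOA1, where 18.9% of all tested probe sets had one. The median log2 difference was 0.75 over the 16 and 0.03 over all tested probe sets.

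**Figure D1:**
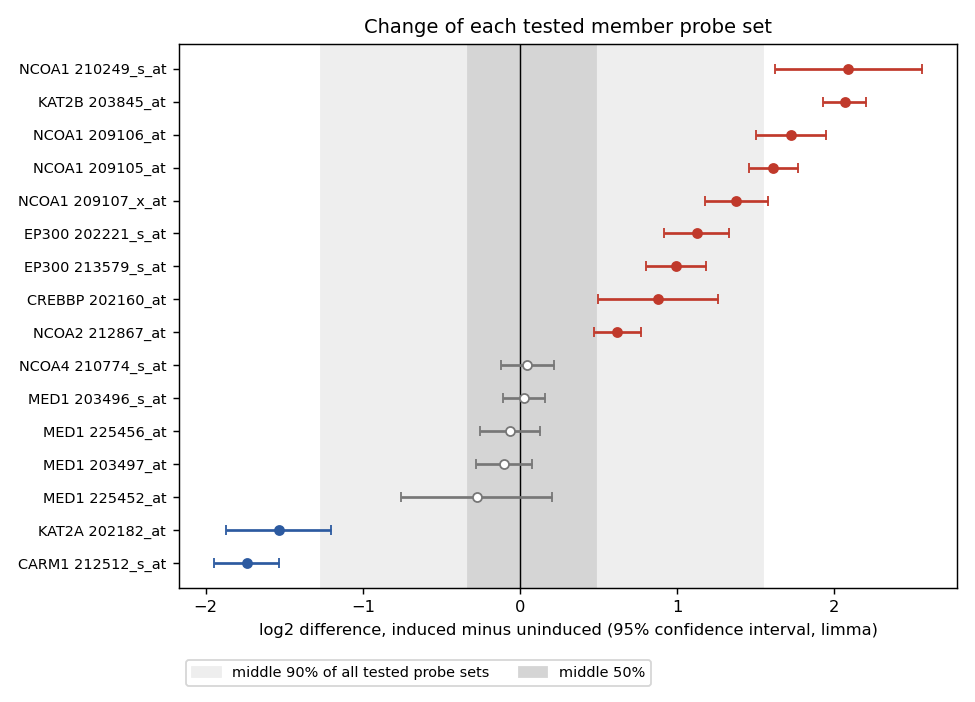
Log2 difference, induced minus uninduced, of the 16 tested probe sets (points) with limma's 95% confidence interval (bars); filled points passed the test, and the grey bands hold the middle 50% and 90% of all 20552 tested probe sets. The probe sets of NCOA1, KAT2B, EP300, CREBBP and NCOA2 lie to the right, those of KAT2A and CARM1 to the left, and those of NCOA4 and MED1 have intervals that include 0.

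Counted by gene, with the tested probe set of highest mean standing for each, 5 of 9 genes were higher (background 35.8% of 9836 genes) and 2 lower (background 30.7%). A called change of over 1 on the log2 scale was measured in 5 of the 9 genes, beside 19.6% of all genes, with the same limit from the choice of genes. The 7 called genes kept their direction and call after quantile normalization and after median centring, although over all tested probe sets quantile normalization turned the split from 7112 higher and 5733 lower to 6750 and 8111.

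The checks of the series as a whole were these. The RARA probe set 211605_s_at stood at 1.87 ± 0.10 in uninduced and 7.58 ± 0.17 in induced samples (SD, 3 arrays each). It was at least 12.0-fold higher in induced samples when the dim group is set to a log2 value of 4 (limma, adjusted p = 1.90e-07). Of the other 3 tested RARA probe sets, 203749_s_at fell by 1.17 on the log2 scale (adjusted p = 1.10e-05) and the others were not called. ZBTB16 (205883_at) was at least 2.38-fold lower (adjusted p = 8.12e-04), where the place of each probe set relative to the fusion point was not analysed here. Of 14 myeloid and monocytic markers with a probe set 12 passed the filter, with ANPEP and MPO below it. Of 9 T and B lymphoid markers 1 passed (PAX5), of 5 erythroid markers 3 (EPOR, KLF1 and TFR2) and of 9 epithelial and stromal markers 2 (KRT8 and COL1A1). The log2 of the summed intensity of the myeloid markers was 15.97 to 16.14 in uninduced and 15.22 in each of the induced samples, a sum carried by its brightest genes. Within it the mean of PTPRC went from 12.15 to 13.92 and that of FCGR2A from 8.34 to 8.83, while ELANE went from 12.92 to 10.12, PRTN3 from 13.50 to 10.19 and SPI1 from 7.12 to 3.16. The summed level of the lymphoid markers was 6.31 to 6.32 in uninduced and 6.41 to 6.47 in induced samples. The erythroid sum was 7.46 to 7.60 and 6.55 to 6.83 and the epithelial and stromal sum 8.65 to 8.73 and 8.26 to 8.35, while HBB and EPCAM were below the filter. For GAPDH, the 3' control probe set exceeded the 5' one, which reads RNA integrity, by a log2 value of 0.48 to 0.53 in uninduced and 0.55 to 0.62 in induced samples, and for ACTB by 1.154 to 1.306 and 1.296 to 1.497, where the groups overlapped. The array of uninduced replicate 3 was dimmer at its 75th percentile, at a log2 value of 6.92, against 7.11 to 7.18 on the other arrays. The part of the marker levels, of RNA quality and of this array level in the changes below was not tested. The change of each member probe set was also computed without each array in turn, which was not done for the related lists or the paired differences.

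Of the p160 family, NCOA1 rose in every probe set that measures it. Its brightest probe set, 209106_at, read 7.71, 7.75 and 7.58 on the uninduced and 9.52, 9.46 and 9.23 on the induced arrays. The lowest induced array stood 1.48 above the highest uninduced array on the log2 scale. The log2 difference was 1.72 ± 0.09 (SE; 3.30-fold; limma, adjusted p = 9.02e-06), larger in size than that of 93.7% of all tested probe sets. Probe set 209105_at read 6.86, 6.87 and 6.77 uninduced and 8.53, 8.42 and 8.40 induced, a difference of 1.61 ± 0.07 (SE). Probe set 209107_x_at read 7.37, 7.47 and 7.31 uninduced and 8.74, 8.90 and 8.65 induced, a difference of 1.38 ± 0.08 (SE). The 4 probe sets of NCOA1 were thus all called higher, by 1.38 to 2.09. The largest of these differences came from 210249_s_at, which also had the widest spread: 6.04, 6.72 and 5.99 uninduced, where replicate 2 was high, and 8.29, 8.49 and 8.25 induced. Probe sets ending in _s_at or _x_at can bind more than 1 transcript, and the 2 NCOA1 probe sets without these endings gave 1.61 and 1.72.

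NCOA2, the second p160 coactivator (GRIP1), rose less. Its probe set 212867_at read 10.14, 10.26 and 10.12 on the uninduced and 10.79, 10.82 and 10.77 on the induced arrays. All induced arrays were higher than all uninduced arrays, by 0.52 at the nearest. The log2 difference was 0.62 ± 0.06 (SE; 1.54-fold; limma, adjusted p = 1.43e-04), larger in size than 64.7% of all tested probe sets. Of the other 3 NCOA2 probe sets, 205732_s_at read 3.92, 3.95 and 3.17 uninduced and 4.37, 4.09 and 3.97 induced, above the filter on 2 arrays and so not tested. The remaining pair, 205731_s_at and 215605_at, lay between 1.81 and 2.20 on every array, a level at which a change could not be seen.

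The 2 acetyltransferases of the SAGA and ATAC complexes moved in opposite directions. KAT2B (203845_at) read 9.44, 9.45 and 9.37 on the uninduced and 11.51, 11.46 and 11.49 on the induced arrays, so that the groups lay 2.01 apart at their nearest arrays. The difference of 2.06 ± 0.06 (SE; 4.18-fold; limma, adjusted p = 7.70e-07) was the largest among the 9 genes when each is taken by its brightest tested probe set, and larger in size than that of 95.9% of all tested probe sets. KAT2A (202182_at) read 8.52, 8.41 and 8.43 uninduced and 6.59, 7.08 and 7.08 induced. Here induced replicate 1 was the lowest, and the groups were 1.32 apart at their nearest arrays. The difference was -1.53 ± 0.14 (SE; 2.90-fold lower; limma, adjusted p = 8.87e-05). Without induced replicate 1 it was the smallest of the 13 alternatives, -1.37, and it was called in all 13. Each of the pair rests on 1 probe set.

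EP300 and CREBBP, the large acetyltransferases that p160 proteins recruit, both rose. EP300 read 9.72, 9.94 and 9.88 uninduced and 10.99, 10.86 and 11.07 induced with 202221_s_at, a difference of 1.12 ± 0.09 (SE; 2.18-fold; limma, adjusted p = 4.17e-05). Its second probe set, 213579_s_at, read 8.77, 8.97 and 8.73 uninduced and 9.87, 9.78 and 9.80 induced, a difference of 0.99 ± 0.08 (SE; 1.99-fold). In neither probe set did the groups overlap.

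CREBBP (202160_at) read 8.77, 8.94 and 8.31 uninduced and 9.55, 9.66 and 9.44 induced. The uninduced arrays spread more than for EP300, with replicate 3 the lowest, and still lay below the induced arrays, by 0.50 at the nearest. The difference was 0.88 ± 0.16 (SE; 1.84-fold; limma, adjusted p = 0.0026). Without uninduced replicate 3 it was 0.70 (adjusted p = 0.0015). The other 3 CREBBP probe sets, 228177_at, 235858_at and 211808_s_at, read 2.12 to 2.56 on all arrays, did not pass the filter and give no information on a change.

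CARM1, the arginine methyltransferase that cooperates with p160 proteins, fell. Its single probe set, 212512_s_at, read 9.44, 9.54 and 9.31 uninduced and 7.74, 7.76 and 7.57 induced. The highest induced array was 1.55 below the lowest uninduced array. The difference of -1.74 ± 0.09 (SE; 3.34-fold lower; limma, adjusted p = 6.35e-06) was the largest fall among the 9 genes and exceeded 93.8% of all tested probe sets in size.

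MED1 and NCOA4 were not called. The brightest MED1 probe set, 225456_at, read 10.47, 10.48 and 10.24 uninduced and 10.36, 10.33 and 10.30 induced, with a 95% confidence interval of the difference from -0.26 to 0.13 (limma, adjusted p = 0.507). It passed the threshold after median centring, at -0.14 (adjusted p = 0.0429). Probe set 203497_at differed by -0.10 (interval -0.28 to 0.08; adjusted p = 0.278) and 203496_s_at by 0.03 (interval -0.11 to 0.16; adjusted p = 0.725). The fourth MED1 probe set, 225452_at, read 7.79, 7.86 and 7.20 uninduced and 7.49, 7.48 and 7.05 induced, a difference of -0.28 ± 0.20 (SE; limma, adjusted p = 0.271). Replicate 3 was the lowest array in both groups. Without uninduced replicate 3 the difference was -0.48 and was called lower (adjusted p = 0.0335), as it was with array weights (-0.55; adjusted p = 0.0169) and with replicate number blocked (-0.28; adjusted p = 0.0270). So a fall of MED1 depended on the probe set and on the array left out, and in 3 of its 4 probe sets the intervals reached no lower than -0.28.

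NCOA4 (210774_s_at) read 13.29, 13.27 and 13.13 uninduced and 13.24, 13.34 and 13.25 induced, so that the groups overlapped. The difference was 0.05 ± 0.07 (SE; limma, adjusted p = 0.592), with a 95% confidence interval from -0.12 to 0.21. The probe set lies high on the intensity scale, and saturation there was not tested.

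**Figure D2:**
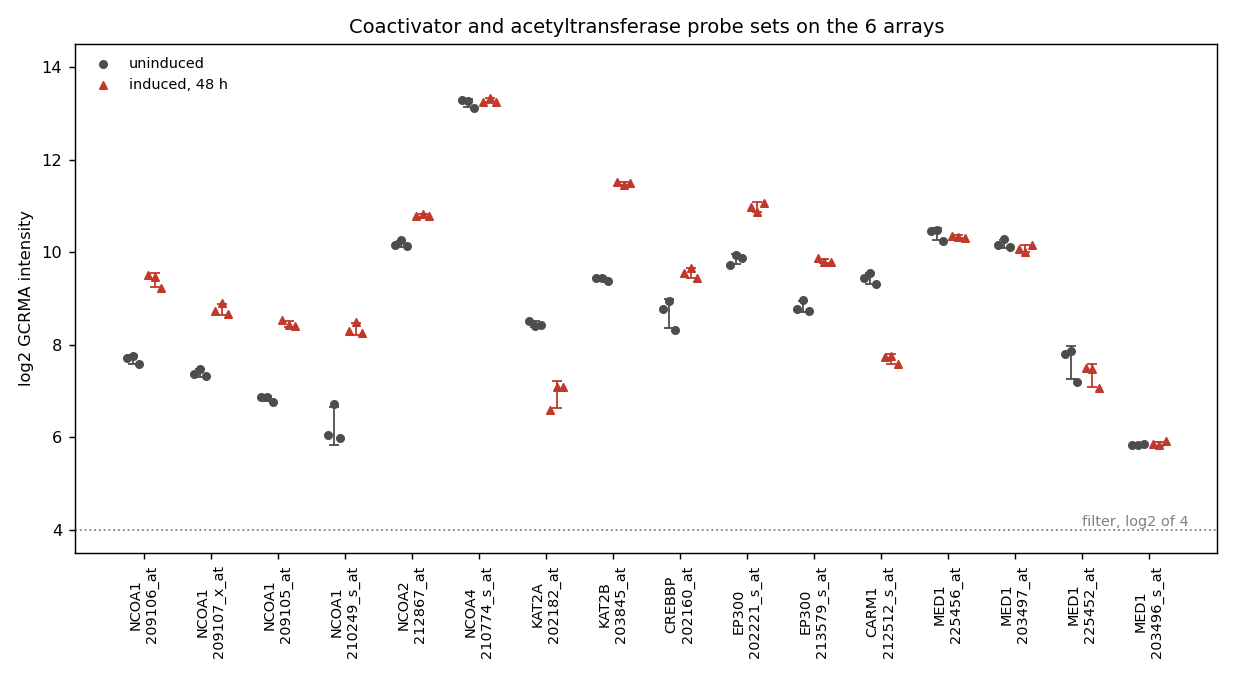
Log2 intensity on each array for the 16 tested probe sets of the 9 genes (points, uninduced grey circles, induced red triangles), with bars of 1 SD around the mean of 3 samples; the dotted line is the filter at 4. The groups are apart for NCOA1, NCOA2, KAT2A, KAT2B, CREBBP, EP300 and CARM1 and overlap for NCOA4 and the 4 probe sets of MED1.

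Related members of a family were then set against each other within each array, so that any shift of a whole array cancels. The level of such a difference means nothing, since the probe sets differ in their response, and only its change between groups is read. KAT2B minus KAT2A was 0.92, 1.04 and 0.95 in the uninduced and 4.93, 4.37 and 4.40 in the induced samples, a change of 3.60 on the log2 scale. NCOA1 minus NCOA2 was -2.44, -2.50 and -2.54 in the uninduced and -1.27, -1.36 and -1.54 in the induced samples, a change of 1.10. In both pairs the groups did not overlap (two-sided exact permutation p = 0.1, and 0.15 adjusted over the 3 pairs compared). A p of 0.1 is the smallest that 3 against 3 allows, so this test cannot bring either difference past 0.05. For KAT2B minus KAT2A the separation was fixed in advance, since KAT2B rose and KAT2A fell, each without overlap. It therefore adds no support to those changes. The share of all gene pairs that separate in this way was not computed. CREBBP minus EP300 ranged from -1.57 to -0.96 in the uninduced and from -1.64 to -1.20 in the induced samples, a change of -0.25 with overlapping groups (exact permutation p = 0.3). The pairs with NCOA3 were not analysed here.

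**Figure D3:**
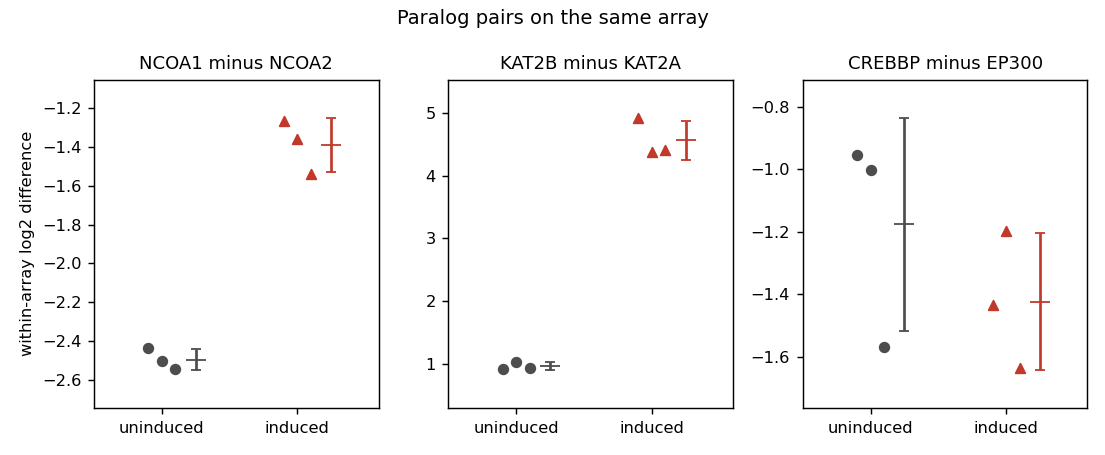
Within-array log2 difference of 3 pairs of related genes on each array (points) with the mean and SD of 3 samples (bars); each panel has its own axis. The difference rises in the induced samples for NCOA1 minus NCOA2 and KAT2B minus KAT2A, and the groups overlap for CREBBP minus EP300.

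The arrays were also searched for genes with profiles like those of the 2 genes with the largest changes by their brightest tested probe sets, KAT2B and CARM1, the latter ahead of NCOA1 by a difference of 1.74 against 1.72 in size. Likeness was the root mean square distance over the 6 arrays after each gene's mean was taken off, among 9835 other genes. Nearest to KAT2B were CCDC69 (distance 0.037 on the log2 scale, difference between groups 2.03), UBALD2 (0.039 and 2.09) and CACYBP (0.056 and 2.13), where the median gene stood 1.03 away. Nearest to CARM1 were SOD2, the mitochondrial superoxide dismutase (distance 0.030, difference -1.72), PFAS, an enzyme of purine synthesis (0.051 and -1.75), and the adhesion molecule ICAM2 (0.057 and -1.66), with a median of 0.88. With 2 groups such a list mainly holds genes with a change of the same size.

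The partners of these genes were counted from 8 lists. Here and below a gene counts by its tested probe set of highest mean, and the backgrounds are those of genes, 35.8% higher and 30.7% lower with a median log2 difference of 0.02.

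Of 33 measured nuclear receptor coactivators outside the members 18 rose, 6 fell and 9 were not called, with a median log2 difference of 0.25. PNRC1, a small receptor-binding coactivator, went from 7.77 ± 0.03 to 9.82 ± 0.07 (SD, n = 3 each; limma, adjusted p = 1.11e-06). TGFB1I1 (HIC5), a focal adhesion protein and receptor coactivator, was below the filter in uninduced samples and at 6.01 ± 0.23 in induced samples, at least 4.02-fold higher. CALCOCO1 rose from 4.61 ± 0.02 to 6.53 ± 0.15, while PPRC1, a PGC-1 related coactivator of mitochondrial biogenesis, fell from 9.57 ± 0.14 to 7.52 ± 0.07. Coactivators of the list thus changed in both directions, with more rises than falls.

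Of 16 other lysine acetyltransferases 5 rose, 5 fell and 6 were not called, with a median of 0.06. KAT6A (MOZ) was 1.85-fold and KAT6B (MORF) 1.49-fold higher, the latter called in 2 of its 5 tested probe sets. The circadian factor CLOCK was 1.97-fold higher. NAT10, which acetylates RNA and protein in the nucleolus, fell from 10.57 ± 0.12 to 9.12 ± 0.17 (SD, n = 3 each; limma, adjusted p = 3.15e-05). The MYST enzymes that rose did so by less than KAT2B, a comparison of sizes that was not tested.

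Among SAGA and ATAC subunits, the partners of KAT2A and KAT2B, 11 of 22 rose, 4 fell and 7 were not called, with a median of 0.23. After quantile normalization 8 rose and 5 fell, and after median centring 9 rose and 4 fell. ATXN7, the SAGA subunit that anchors the deubiquitinase module, went from 8.40 ± 0.25 to 9.87 ± 0.10 (SD, n = 3 each; limma, adjusted p = 8.03e-05). TAF9B (1.79-fold; 3 of its 4 tested probe sets) and the adaptor TADA3 (1.83-fold) were higher and TADA1 was 1.43-fold lower. ATXN7 was the member of this list with a called change over 1 on the log2 scale.

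Of 32 subunits of the MYST complexes (NuA4, MOZ, HBO1 and MSL) 14 rose, 5 fell and 13 were not called, with a median of 0.10. The ATPases RUVBL1 and RUVBL2, which also serve other complexes, were 2.81-fold and 2.06-fold lower. BRPF3, a scaffold of HBO1, was 2.55-fold and EPC2, of NuA4, 1.81-fold higher. Of 28 other Mediator subunits 14 rose, 6 fell and 8 were not called, with a median of 0.19. All 4 with the smallest adjusted p rose: the kinase CDK19 (3.03-fold; 2 of its 3 tested probe sets), MED13L (2.47-fold), MED13 (1.84-fold) and the backbone subunit MED14 (1.64-fold). CDK19, MED13 and MED13L belong to the dissociable kinase module of Mediator, of which CDK8, MED12 and CCNC were named after their values were seen. The other kinase, CDK8, was 1.41-fold lower in 3 of 3 probe sets (limma, adjusted p = 0.0017). MED12 was 1.54-fold higher in 3 of 3 probe sets (limma, adjusted p = 0.0018), and CCNC was not called (log2 difference -0.01).

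Of the 48 listed nuclear receptors 17 were measured, of which 5 rose, 7 fell and 5 were not called, with a median of -0.15. After quantile normalization 10 fell, and after median centring 9. Lower calls over all tested probe sets rose as well, as counted below. RXRA, the partner of RARA on DNA, fell from 9.74 ± 0.06 to 8.96 ± 0.09 (SD, n = 3 each; limma, adjusted p = 8.73e-05) in 1 of its 2 tested probe sets. The orphan receptor ESRRA was 1.95-fold lower, and the glucocorticoid receptor NR3C1 was 1.57-fold higher in 5 of 5 probe sets. PPARD was 1.55-fold higher in 1 of 2. No receptor of this list had a called change of over 1 on the log2 scale in its representative probe set. RARA is represented there by 203750_s_at, which was not called, and not by the probe set given above.

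Of 17 measured factors that bind CREBBP or EP300 8 rose, 3 fell and 6 were not called, or 8 fell after quantile normalization and 5 after median centring. Over all tested probe sets lower calls also rose, from 5733 of 20552 to 8111 of 20611 and 7106 of 20552 in these settings. The hypoxia factor EPAS1 (HIF-2 alpha) was below the filter in uninduced samples and at 6.75 ± 0.20 in induced samples (SD, n = 3), at least 6.72-fold higher. HIF1A was 2.52-fold higher, and CITED4, which competes with such factors for the acetyltransferases, fell from 9.70 ± 0.13 to 7.16 ± 0.04 (SD, n = 3 each; limma, adjusted p = 1.14e-06). MYB, a myeloid progenitor factor that works with EP300, was 2.50-fold lower in 2 of 2 probe sets. Around NCOA4, 5 of 14 genes of iron handling and autophagosome formation rose and 3 fell, or 5 fell after quantile normalization and also after median centring. The ferrireductase STEAP3 was 9.22-fold and the autophagy enzyme ATG7 1.75-fold lower (3 of its 4 tested probe sets), while the autophagosome proteins GABARAPL1 and MAP1LC3B were 4.33-fold and 2.22-fold higher.

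**Figure D4:**
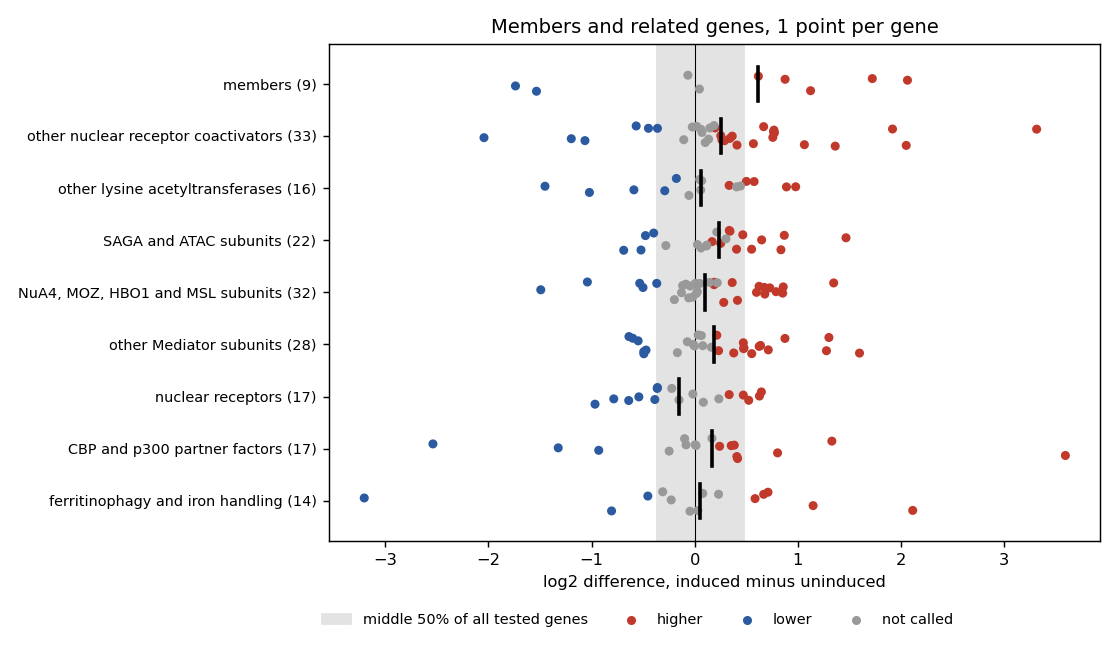
Log2 difference, induced minus uninduced, of the 9 members and of the measured genes of 8 related lists (1 point per gene, by its tested probe set of highest mean; red higher, blue lower, grey not called); black bars are medians and the grey band holds the middle 50% of all 9836 tested genes. The median is 0.62 for the members and between -0.15 and 0.25 for the related lists.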

How the data were processed

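RNA of 6 samples was measured on 6 arrays, and samples were grouped by their titles. The deposited table gives 1 linear intensity per probe set and array, which the authors computed with GCRMA (per the submitters' processing notes). The version of GCRMA and any further scaling: not given in the sources used here. GCRMA draws dim probe sets together, which compresses changes there. The table holds 54675 probe sets, of which 62 controls were left out, and 6 values under 1 were raised to 1 before log2. Of the rest 41091 had 1 symbol, 1801 several and 11721 none. The filter, fit and counts are described with the results (limma 3.58.1, lmFit and eBayes, R 4.3.3, two-sided, threshold 0.05; figures with matplotlib 3.10.9). The fit was also run on simulated data in which far fewer probe sets changed than were called here. That run does not measure the error rate of the calls reported. The 10 genes and the 8 related lists were chosen with earlier results of these data known. The genes named are all probe sets of the members, up to 4 genes per list with the smallest adjusted p, RARA and ZBTB16, and the 3 nearest profiles of 2 members. Cell type markers and array controls are named too, and CDK8, MED12, CCNC, KAT8, KAT7 and KAT5 were added after their values were seen. The number of arrays limits the precision. Alternatives tried: the filter removed or raised to 6, median centring, quantile normalization, array weights, eBayes with a robust trend, replicates blocked by number, each array left out, averaged probe sets per gene, and _x_at and _s_at probe sets left out.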

Additional observations from a re-analysis of the deposited data

How the results depend on the processing

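The 9 higher and 2 lower probe sets of the members kept their direction and call under all 13 alternatives of the probe set fit. The range of the log2 difference was 1.99 to 2.08 for KAT2B, 1.62 to 1.81 for NCOA1 209106_at, 0.67 to 1.01 for CREBBP, -1.64 to -1.37 for KAT2A and -1.84 to -1.68 for CARM1. Without _x_at and _s_at probe sets 1 member gene was lower in place of 2, because the single probe set of CARM1 ends in _s_at, and 4 were higher in place of 5, because both probe sets of EP300 do. CBP and p300 partner factors that fell numbered 8 after quantile normalization and 5 after median centring in place of 3. Genes of ferritinophagy and iron handling that fell numbered 5 and 5 in place of 3, and nuclear receptors 10 and 9 in place of 7. Lower calls over all tested probe sets numbered 8111 of 20611 and 7106 of 20552 in place of 5733 of 20552. The cause was not tested. The labels tie same-numbered arrays of the groups by number only. The correlations of their deviations from the group means were -0.17, 0.0005 and 0.18. Between differently numbered arrays they ran from -0.24 to 0.21. With 3 arrays per group these values cannot show whether the numbers mark a pairing. With a replicate block 9 member probe sets were higher and 3 lower, the third being MED1 225452_at, and 7099 and 5710 of all tested probe sets were called in place of 7112 and 5733. The table has no detection calls, so dim probe sets, as most of those of NCOA2 and CREBBP, show no bound on a change.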
